A study of Rattus norvegicus with 6 samples.

Results

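MHC class II antigen presentation was followed through 8 rat genes. They were RT1-Ba, RT1-Bb, RT1-Da and RT1-Db1, which encode the chains of the class II molecules, RT1-DMa and RT1-DMb, which encode their peptide editor, Cd74, which encodes the invariant chain, and Ciita, which encodes the class II transactivator. The genes were chosen by name, with earlier results of these data known. A probe was taken as theirs when its accession belonged to the gene in RefSeq (GRCr8 assembly). All 8 genes had a probe, 10 of the 30367 probes on the array. Of these, 9 probes of 7 genes were among the 23997 probes of the authors' normalized table and were tested, with a pair of probes each for RT1-Bb and RT1-Db1. The single probe of RT1-Ba was not well above background in any of the 6 rats, so that no fold change is given for it.

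Colon RNA of 3 male rats of the S.LEW congenic strain (C1 to C3) and 3 male rats of the S strain (S1 to S3) was read on single-color Agilent arrays, with 1 array per rat. The S strain is the inbred Dahl salt-sensitive rat (SS/Jr), and the S.LEW(10)x12x2x3x5 congenic strain carries a short piece of chromosome 10 of the normotensive Lewis rat, with the gene Rffl, on the S background. All 6 rats received azoxymethane (AOM), a colon carcinogen, in 2 weekly intraperitoneal injections of 15 mg per kg of body weight from the age of 6 weeks, were kept on a diet with 0.3% NaCl, and were taken at 30 weeks of age with induced colon tumors. The comparison between the strains asks whether the Lewis piece, mapped for blood pressure, also bears on gene expression in the tumor-bearing colon, and no rat without AOM was analysed here. The labels do not say how much tumor or lymphoid tissue a sample held.

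Class II molecules are pairs of an alpha and a beta chain on the surface of B cells, dendritic cells and macrophages, where they show peptides of ingested proteins to CD4+ T cells. While a new molecule travels to the endosome the invariant chain fills its groove, cathepsins then cut the invariant chain away, and the DM molecule exchanges the last fragment for a peptide. Ciita does not bind DNA itself but is recruited to class II promoters by RFX, CREB and NF-Y proteins seated on the X and Y boxes, and in the gut class II molecules are found on lymphoid follicles and lamina propria cells and, under interferon gamma, on the epithelium.

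The RefSeq promoter windows (GRCr8, 250 bases before to 50 after the start of the gene) were searched for GCAAC, a core of the X box, and ATTGG, the core of the Y box, on both strands, and overlaps between the motifs were allowed. The windows below are shown because these boxes are the place where Ciita is recruited. The genes behind them had S1 and S3 above the other 4 rats, apart from RT1-Ba, which was not above background. That order was found at 25.8% of all probes, and the part of the boxes in it was not tested. They are written 5′ to 3′ on the strand of the gene, with both motifs in capitals.
RT1-Ba, chr20:4576969-4577026, plus strand: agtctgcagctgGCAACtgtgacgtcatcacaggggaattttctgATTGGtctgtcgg
RT1-Da, chr20:4515321-4515378, plus strand: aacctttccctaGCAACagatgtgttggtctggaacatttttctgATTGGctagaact
RT1-Db1, chr20:4560230-4560287, minus strand: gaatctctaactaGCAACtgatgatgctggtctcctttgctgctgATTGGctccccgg
RT1-DOb, chr20:4627594-4627651, minus strand: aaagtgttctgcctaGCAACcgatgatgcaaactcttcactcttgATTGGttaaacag
RT1-Bb, chr20:4604167-4604224, minus strand: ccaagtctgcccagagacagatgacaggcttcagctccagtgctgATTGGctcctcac
RT1-DMa, chr20:4712387-4712444, minus strand: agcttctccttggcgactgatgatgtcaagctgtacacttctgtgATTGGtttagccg

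RT1-DOb, a class II gene outside the 8, encodes a chain of DO, a molecule that restrains DM. The start of GCAAC lay 33 bases before that of ATTGG in RT1-Ba and RT1-Da, 32 in RT1-Db1 and 30 in RT1-DOb, while RT1-Bb and RT1-DMa held ATTGG without GCAAC. Cd74 held GCAAC on its own strand and ATTGG on the opposite strand, and its window is not shown. RT1-DMb and Ciita had no matched promoter entry, and 6 of the 8 members did. GCAAC alone was present on either strand in 35.1% and ATTGG alone in 37.5% of the 33469 promoter windows. The pair at 30 to 33 bases was present in 0.182%, in 3 of the 6 members with an entry, and in 7 of 10 class II genes with RT1-DOa, RT1-DOb, RT1-Db2 and RT1-Ha counted in. The spacing was set after these sequences had been read. Outside the class II genes the pair was found in 19 tested genes, and the signal of S1 and S3 was above that of the other 4 rats for 6 of them (31.6%), against 25.7% of all 12418 tested genes.

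The authors' values are log2 signals after quantile normalization, a step that gives each array the same distribution of signals. The congenic and S rats were compared with limma, a linear model that borrows strength across probes when it estimates the spread. A probe was called at an unadjusted p under 0.05 with a change of at least 2-fold, the cut-offs of the study. The Benjamini-Hochberg adjusted p over all 23997 probes is given beside the fold changes of named genes. Exceptions are genes named for their correlation with the class II genes, bounds for probes outside the authors' table, and some values from fewer rats. A log2 fold change is the congenic mean minus the S mean, so that a negative value is a lower signal in the congenic rats. The labels do not say that rats of 1 strain came from separate litters, and p-values measure the spread between these rats.

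The array of S2 stood apart from those of its own strain. Across the 23997 probes its correlation was 0.967 to 0.976 with the congenic arrays but 0.900 with S1 and 0.937 with S3, although S1 and S3 had one of 0.980 with each other. Whether S2 was of the strain on its label was not tested, and each congenic minus S value takes the label as given. The counts of class II genes and of the gene lists are therefore given with and without S2. S1 and S3 also had the brightest arrays before normalization, with median intensities of 594 and 445 against 214 to 291 in the other 4 rats. By the file headers C1 and the 3 S arrays shared a scan and C2 and C3 another, so that a comparison within a scan rests on C1 for the congenic strain. The markers of colon were present in all 6 rats, with all 10 tested epithelial genes and all 7 tested smooth muscle genes well above background on each array.

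The class II genes were high in S1 and S3 and low in the other 4 rats at all 9 tested probes, whatever their role in the pathway. S1 lay 7.52-fold (RT1-DMa) to 54.6-fold (Ciita) above the congenic mean, and S3 lay 4.77-fold to 41.2-fold above it for the same genes. S2 did not share these levels and was 0.04 (Ciita) to 0.38 (RT1-DMb) log2 units below the congenic mean. As a result the strains overlapped at every class II probe, and limma called 1 of the 9 probes lower in the congenic rats, Ciita, where 2.34% of all probes were called lower. None of the 9 was called higher, against 3.23% of all probes. After adjustment limma called 0 of 23997 probes, in either direction, while 3115 lay under an unadjusted p of 0.05.

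**Figure D1:**
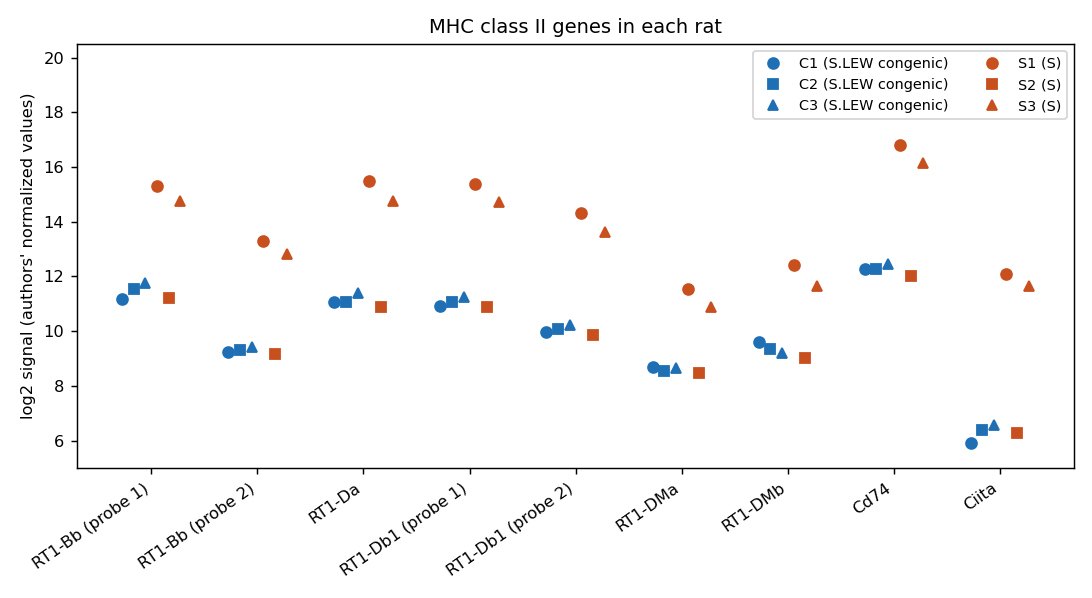
The log2 signal (vertical axis, the authors' normalized values) of each tested class II probe (horizontal axis) is plotted for each rat, with the S.LEW congenic rats in blue and the S rats in orange. S1 and S3 lie above the other 4 rats at all 9 probes, and S2 lies among or just below the congenic rats.

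The beta chain gene RT1-Bb belongs to RT1-B, the rat counterpart of mouse I-A and human HLA-DQ. On its first probe (A_44_P552452) C1, C2 and C3 had a log2 signal of 11.17, 11.54 and 11.77, and S1, S2 and S3 of 15.31, 11.20 and 14.77. S2 fell between C1 and C2, so the groups overlapped, and only S1 and S3 stood above the congenic range. The congenic mean was 11.49 ± 0.30 (SD, n = 3) and the S mean 13.76 ± 2.24 (SD, n = 3), a log2 fold change of -2.27 (standard error 1.04, limma adjusted p = 0.403). The second probe (A_64_P043911) gave 9.23, 9.30 and 9.42 in C1, C2 and C3 and 13.31, 9.18 and 12.82 in S1, S2 and S3. Here S2 was the lowest of the 6 rats. The log2 fold change of this probe was -2.45 (standard error 1.04, limma adjusted p = 0.388), against -2.27 for the first. Both probes were read on the same 6 rats.

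RT1-Da and RT1-Db1 encode the alpha and beta chain of RT1-D, the counterpart of mouse I-E and human HLA-DR. RT1-Da (A_44_P991532) had a log2 signal of 11.05 in C1, 11.05 in C2, 11.41 in C3, 15.48 in S1, 10.87 in S2 and 14.75 in S3. The 3 congenic rats were close to each other, and S2 was below all of them. The congenic mean was 11.17 ± 0.20 (SD, n = 3) and the S mean 13.70 ± 2.48 (SD, n = 3), with a log2 fold change of -2.53 (standard error 1.14, limma adjusted p = 0.400). RT1-Db1 read 10.90, 11.06 and 11.26 in the congenic rats against 15.38, 10.88 and 14.73 in S1, S2 and S3 on its first probe (A_64_P134927). It read 9.99, 10.09 and 10.21 in the congenic rats against 14.31, 9.87 and 13.61 in S1, S2 and S3 on its second probe (A_64_P130578). Both probes showed S2 as the lowest rat and S1 as the highest. Their log2 fold changes were -2.59 (95% interval -5.30 to 0.12) and -2.50 (95% interval -5.16 to 0.15), with limma adjusted p of 0.392 and 0.393. The RT1 genes are a family of similar copies, and whether a probe also read a related copy was not tested.

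The genes of the peptide editor had smaller log2 fold changes than those of the chains, a difference that was not tested. RT1-DMa (A_64_P128478) had a log2 signal of 8.70 in C1, 8.56 in C2, 8.66 in C3, 11.55 in S1, 8.46 in S2 and 10.89 in S3. RT1-DMb (A_64_P062110) had 9.60 in C1, 9.33 in C2, 9.22 in C3, 12.43 in S1, 9.01 in S2 and 11.65 in S3. S1 and S3 were again the only high rats for both genes, and S2 was again the lowest. The log2 fold changes were -1.66 (standard error 0.76) and -1.64 (standard error 0.84), with limma adjusted p of 0.402 and 0.430.

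Cd74 (A_44_P549494), whose product fills the class II groove on the way to the endosome, had a log2 signal of 12.26 in C1, 12.29 in C2, 12.45 in C3, 16.82 in S1, 12.01 in S2 and 16.13 in S3. The congenic rats were close to each other, S2 was just below them, and S1 and S3 were far above. The congenic mean was 12.33 ± 0.10 (SD, n = 3) and the S mean 14.99 ± 2.60 (SD, n = 3). The log2 fold change was -2.66 (standard error 1.20, 95% interval -5.54 to 0.23, limma adjusted p = 0.399).

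Ciita (A_64_P010569), the coactivator on which class II transcription depends, had the widest gap of the 9 probes. C1, C2 and C3 had a log2 signal of 5.93, 6.40 and 6.58, and S1, S2 and S3 of 12.07, 6.27 and 11.67. S2 fell between C1 and C2, so the strains overlapped. The means were 6.30 ± 0.34 (SD, n = 3) and 10.00 ± 3.24 (SD, n = 3), a log2 fold change of -3.70 (standard error 1.50, 95% interval -7.30 to -0.10). Its unadjusted p of 0.0457 from limma, fitted across all probes, was just under the threshold, and the adjusted p was 0.380. The call was lost without any single rat other than S2 (log2 fold change -3.84 to -2.66), and within the scan that holds both strains, where the log2 fold change was -4.07. Ciita lies on chromosome 10 like the Lewis piece, 62.5 Mb from Rffl in GRCr8, and the other members lie on chromosomes 18 (Cd74) and 20.

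For single probes a two-sided exact permutation test over the 6 rats gave p = 0.3 for Ciita and the first RT1-Bb probe and p = 0.4 for the other 7 probes, where the smallest p that 3 against 3 rats allow is 0.10. None of the 9 probes had every congenic rat below every S rat, a pattern found at 5.33% of all probes. All 9 had S1 and S3 at least 2-fold above the other 4 rats, which held for 3.89% of all probes, while S1 and S3 were above the other 4 by any amount at 25.8%. S2 was the lowest rat at 7 of the 9, against 19.5% of all probes. S1 was above S3 at all 9, by 0.41 (Ciita) to 0.78 (RT1-DMb) log2 units, against 54% of all probes. These 9 probes share the same 6 arrays and belong to 1 pathway, and their counts are a description of these rats.

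**Figure D2:**
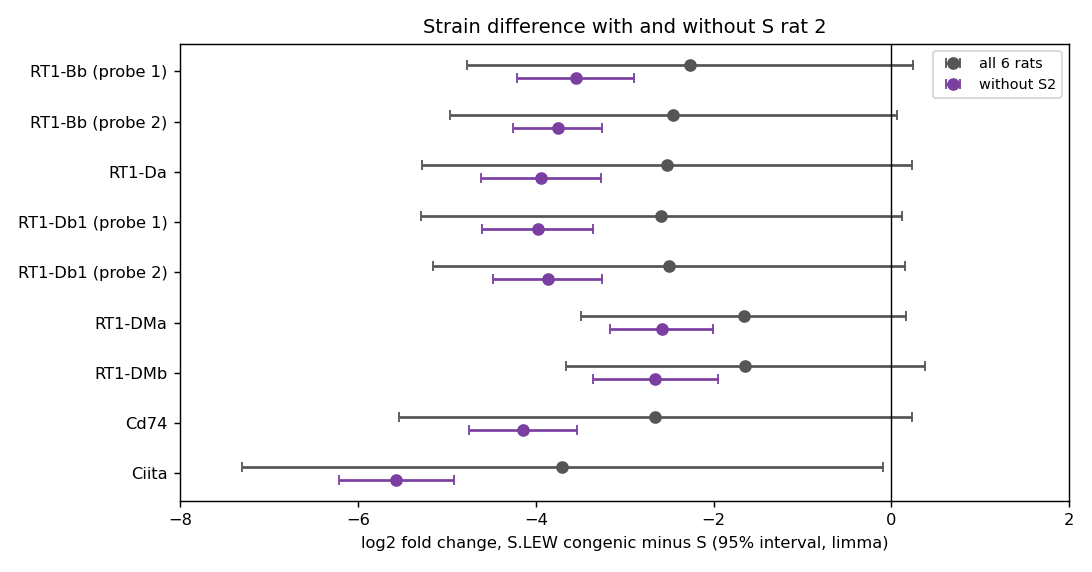
The log2 fold change (horizontal axis, congenic minus S, with the 95% interval of limma) is plotted for each class II probe with all 6 rats in gray and without S2 in purple. With all rats the intervals reach 0 at every probe but Ciita, and without S2 they lie below 0 at all 9.

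Without S2 the same comparison gave smaller errors and larger differences for all class II genes. The log2 fold change was -2.58 for RT1-DMa, -2.65 for RT1-DMb, -3.55 and -3.75 for RT1-Bb, -3.94 for RT1-Da, -3.98 and -3.87 for RT1-Db1, -4.14 for Cd74 and -5.57 for Ciita. The standard errors fell from between 0.76 and 1.50 to between 0.20 and 0.28. All 9 probes were then called lower, where 7.19% of all probes were, and limma gave adjusted p of 0.000738 (Ciita) to 0.00667 (RT1-DMb). Over all settings run, the adjusted p of the 9 probes ranged from 0.000738 to 0.917. S2 is set apart on the same arrays, so the 5 remaining rats are no independent evidence of a strain difference. Without S1 in its turn the log2 fold changes were -2.66 to -0.94, and without S3 they were -2.87 to -1.33. Within the scan of both strains they were -4.07 to -1.43. The part of array brightness in the levels of S1 and S3 was not tested, and the median log2 fold change of the 9 probes was -2.50 on the authors' values and -2.42 with the arrays scaled to the 75th percentile.

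Of 20 genes listed for class II transcription, 17 were tested, and limma called 1 lower in the congenic rats, Jak1, and none higher, where 2.62% and 3.79% of all 12418 genes were called lower and higher, with 1 probe per gene. Their median log2 fold change was -0.34, against -2.53 for the 7 class II genes and 0.03 for all genes. S1 and S3 were above the other 4 rats for 13 of the 17, against 25.7% of all genes, but by less than at the class II genes. The following genes were named after their values had been seen. Rfx5, the X box binding subunit of RFX, had a log2 signal of 9.06, 9.34 and 9.98 in C1, C2 and C3 and 9.60, 8.93 and 9.56 in S1, S2 and S3. The strains overlapped, and S1 and S3 lay inside the congenic range, with a log2 fold change of 0.09 (standard error 0.32, limma adjusted p = 0.894). The NF-Y subunits Nfya, Nfyb and Nfyc had log2 fold changes of -0.14, 0.09 and -0.04, with limma adjusted p of 0.711, 0.803 and 0.928.

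Jak1, a kinase of the interferon receptors, had a log2 signal of 11.79, 11.90 and 11.95 in the congenic rats against 13.45, 12.12 and 13.14 in S1, S2 and S3. All 3 S rats were above all 3 congenic rats, S2 by the least. The log2 fold change was -1.02 (standard error 0.36, limma adjusted p = 0.348). Irf8, a transcription factor of B cells and dendritic cells, had 8.64, 8.64 and 8.34 in the congenic rats against 10.88, 8.20 and 10.33 in S1, S2 and S3. S1 and S3 were high and S2 was lowest for Irf8, with a log2 fold change of -1.27 (limma adjusted p = 0.440). Rfxap, an RFX subunit, had a log2 fold change of -0.59 with a limma adjusted p of 0.453. Without S2 limma called 3 of the 17 genes lower and none higher, where 8.27% of all genes were called lower.

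**Figure D3:**
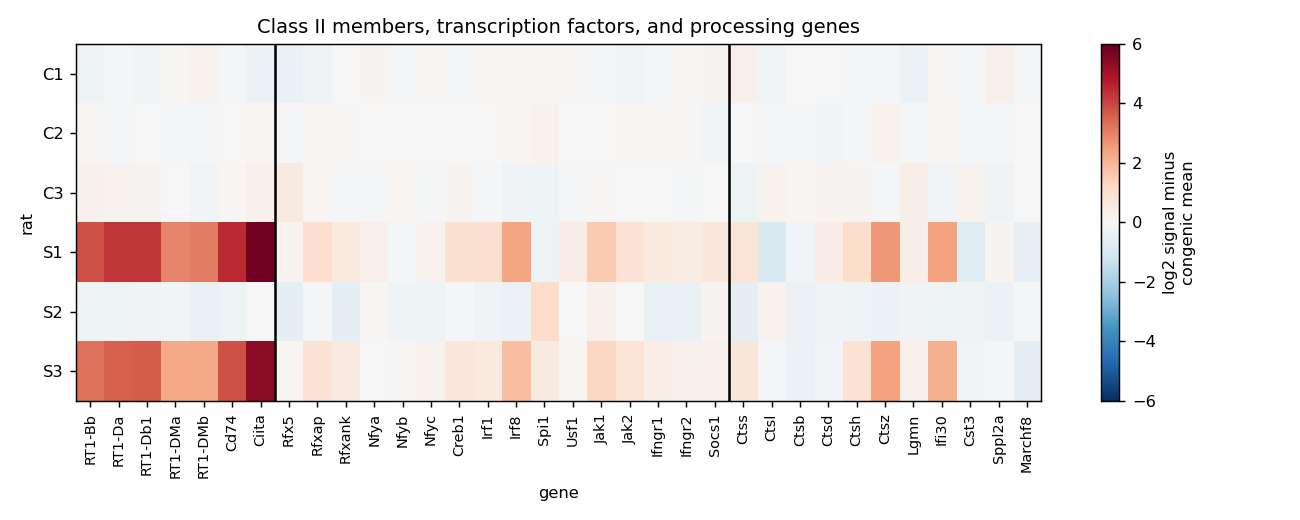
Color gives the log2 signal of each gene (columns) in each rat (rows) minus its mean in the 3 congenic rats, for the 7 tested class II genes, genes of class II transcription and genes of invariant chain processing and class II turnover, separated by lines. The class II block is red in S1 and S3 alone, up to 5.77 above the congenic mean for Ciita, while Rfx5 and the NF-Y genes are near 0.

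Among the genes that process the invariant chain and turn class II molecules over, 11 of 12 were tested and limma called none in either direction, with 0 at an unadjusted p under 0.05, where 14.5% of all genes lay. Their median log2 fold change was -0.02. Ctsz, a cathepsin, had a log2 signal of 7.96, 8.30 and 8.03 in the congenic rats against 10.71, 7.77 and 10.52 in S1, S2 and S3. Ifi30, the thiol reductase of the endosome, had 12.07, 12.12 and 11.84 in the congenic rats against 14.44, 11.70 and 14.13 in S1, S2 and S3. Both were high in S1 and S3 and lowest in S2, with log2 fold changes of -1.57 and -1.41 and limma adjusted p of 0.419 and 0.421. Ctsh had a log2 fold change of -0.57 and the ubiquitin ligase gene Marchf8 of 0.38, with limma adjusted p of 0.498 and 0.433. Without S2 limma called 2 of the 11 lower and none higher, against 8.27% and 11.3% of all genes.

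RT1-DOb, whose promoter is printed above, was called lower with a log2 signal of 7.02, 6.67 and 6.62 in the congenic rats against 11.76, 6.77 and 10.99 in S1, S2 and S3. S2 fell within the congenic range, as for Ciita. The log2 fold change was -3.07 (standard error 1.24, limma adjusted p = 0.380), and -4.61 without S2.

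The class I pathway, which shows peptides of the cell's own proteins to CD8+ T cells, had 15 tested genes of 20 listed. Limma called none of them in either direction, where 2.62% and 3.79% of all genes were called lower and higher. There were 0 at an unadjusted p under 0.05, against 14.5% of all genes, and their median log2 fold change was -0.69. S1 and S3 were above the other 4 rats for 12 of the 15, against 25.7% of all genes. Tap1, a subunit of the peptide transporter, had a log2 signal of 7.38, 7.19 and 6.73 in the congenic rats against 9.55, 6.34 and 8.79 in S1, S2 and S3. S1 and S3 were high and S2 was lowest here too. The log2 fold change was -1.13 for Tap1, -1.06 for the immunoproteasome gene Psmb8, -0.90 for RT1-A2, a class I heavy chain, and -0.89 for Tap2, with limma adjusted p of 0.411 to 0.590. Without S2 limma called 10 of the 15 lower and none higher, against 8.27% and 11.3% of all genes.

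Genes of co-stimulation and class II recognition counted 7 tested of 12, with a median log2 fold change of -1.36. Limma called 1 lower and none higher, against 2.62% and 3.79% of all genes. S1 and S3 were above the other 4 rats for 5 of the 7, but not for Cd80 or Cd86. Cd80 was lowest in S1 (9.75) and highest in S2 (12.33). Both genes had a log2 fold change of -0.34 (limma adjusted p of 0.809 and 0.814). Ctla4, the inhibitory receptor of T cells, was the called gene, with log2 signals of 6.56, 5.45 and 4.68 in the congenic rats against 7.55, 6.43 and 6.90 in S1, S2 and S3. S2 was below C1, so the strains overlapped, and the probe was well above background in 1 congenic rat and all 3 S rats. Its log2 fold change was -1.40 (limma adjusted p = 0.360). Cd40, a receptor through which T cells activate antigen-presenting cells, read 6.51, 6.46 and 7.19 in the congenic rats against 10.63, 6.08 and 10.19 in S1, S2 and S3. Its log2 fold change was -2.24 (limma adjusted p = 0.436). Lag3, which binds class II, read 3.94, 4.73 and 4.57 in the congenic rats against 8.37, 4.13 and 6.42 in S1, S2 and S3. S2 fell within the congenic range, so the strains overlapped. The Lag3 probe was well above background in no congenic rat and all 3 S rats. Its fold is therefore a bound, with the S mean at least 2.39-fold higher (limma adjusted p = 0.439). S1 raises that mean the most, and the Lag3 bound was not computed with a rat left out. Cd274, the ligand of the PD-1 receptor, was well above background in 1 congenic rat and all 3 S rats, with a log2 fold change of -1.36 (limma adjusted p = 0.452). Its signal was lowest in S2 (4.48), so the strains overlapped here too. Without S2 limma called 5 of the 7 lower and none higher, against 8.27% and 11.3% of all genes.

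Several marker genes of B cells, T cells, dendritic cells, macrophages and plasma cells were also high in S1 and S3. In bulk tissue fewer cells of a type and less RNA per cell cannot be told apart. The mean over the 7 class II genes, taken relative to the 6 rats, was -1.33, -1.24 and -1.08 in C1, C2 and C3 and 2.88, -1.46 and 2.24 in S1, S2 and S3. The B cell list, with 6 of 12 genes tested, stood at -2.02, -1.42 and -1.36 in the congenic rats against 3.65, -1.85 and 2.99 in S1, S2 and S3. S1 and S3 were high and S2 was within the congenic range. Limma called 2 of the 6 lower, among them Spib, and none higher, where 2.62% and 3.79% of all genes were. Without S2 it called 5 of the 6 lower, against 8.27% of all genes. These 5 had S1 and S3 above the other 4 rats. Of the 6 tested genes, 4 were well above background on all 6 arrays. The list means and the counts thus include signals near background. Spib, a transcription factor of B cells, had a log2 fold change of -2.85 (limma adjusted p = 0.383). Pax5, the factor that fixes B cell identity, did not follow, with 10.26, 10.00 and 9.98 in the congenic rats, 10.04, 10.47 and 9.77 in S1, S2 and S3, and a log2 fold change of -0.02 (limma adjusted p = 0.978).

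The T cell list, with 8 of 12 genes tested, stood between -1.35 and -1.18 in the congenic rats against 2.54, -1.36 and 2.57 in S1, S2 and S3. Limma called 5 of the 8 lower, against 2.62% of all genes, and 8 of 8 without S2, against 8.27%. Among the 5 were Cd3d (log2 fold change -1.08, adjusted p = 0.384) and Cd3g (-2.31, adjusted p = 0.320), which encode chains of the T cell receptor complex. Of the 8 tested T cell genes, 6 were well above background on all 6 arrays, so signals near background enter these counts too. Dendritic cell markers, 6 of 12 tested, stood between -0.65 and -0.41 in the congenic rats against 1.27, -0.64 and 0.97 in S1, S2 and S3, with 1 called lower, and 4 without S2. The gene called with all rats was Cd83, a marker of mature dendritic cells, with a log2 fold change of -2.84 (limma adjusted p = 0.375), while Fscn1 had -1.21 (limma adjusted p = 0.393). S1 and S3 were above the other 4 rats for 4 of the 6 dendritic cell markers. Clec10a and Zbtb46 did not follow, with log2 fold changes of 0.42 and -0.40 (limma adjusted p of 0.531 and 0.671). Clec10a, Zbtb46, Cd83 and Fscn1 were well above background on all 6 arrays. The other tested dendritic cell markers were not, and they are among the 4 called lower without S2.

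Macrophage markers spread less, from -0.46 to 0.03 in the congenic rats, with 0.50, -0.62 and 0.55 in S1, S2 and S3. All 12 were tested, and S1 and S3 were above the other 4 rats for 7 of them. Limma called 1 lower, Csf1r, a growth factor receptor (log2 fold change -1.42, adjusted p = 0.336). It called 2 higher, the scavenger receptor genes Cd163 (1.85, adjusted p = 0.283) and Mrc1 (1.03, adjusted p = 0.323), whose signals were lower in all S rats than in any congenic rat. Without S2 it called 6 lower and 2 higher, where 8.27% and 11.3% of all genes were, against 2.62% and 3.79% with all rats. Lyz2 and C1qb had log2 fold changes of -2.21 and -0.78 with limma adjusted p of 0.405 and 0.527. Plasma cell markers stood between -1.01 and -0.17 in the congenic rats against 1.16, -0.58 and 1.49 in S1, S2 and S3, with 3 of 7 called lower, and the same number without S2. The called genes were Pou2af1 (log2 fold change -3.80, limma adjusted p = 0.372), Mzb1 (-2.53, adjusted p = 0.342) and Derl3 (-1.74, adjusted p = 0.354). Sdc1 and Xbp1 had log2 fold changes of 0.77 and 0.26 (limma adjusted p of 0.262 and 0.522), and the other 2 tested genes were below 0. Of the 7 plasma cell markers, 5 were well above background on all 6 arrays, and Mzb1 was so on 5 arrays.

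Epithelial and smooth muscle markers had the opposite sign. The epithelial list stood at 0.62, 0.50 and 0.08 in the congenic rats against -0.61, -0.17 and -0.41 in S1, S2 and S3, with all 10 log2 fold changes above 0. At an unadjusted p under 0.05 there were 8 of the 10 genes, against 14.5% of all genes. Of these 1 also passed 2-fold, Vil1 (log2 fold change 1.01, limma adjusted p = 0.283). Called higher were thus 1 of 10, and 2 without S2, against 3.79% and 11.3% of all genes. Lgals4 and Krt19, both of the epithelium, had log2 fold changes of 0.80 and 0.94 with limma adjusted p of 0.268 and 0.333. The smooth muscle list stood between 0.37 and 0.60 in the congenic rats against -1.54, 0.68 and -0.51 in S1, S2 and S3, with none of 7 called and a median log2 fold change of 0.92. Without S2, 5 of the 7 were called higher, with a median of 1.50, against 11.3% of all genes. Actg2 and Myh11 had log2 fold changes of 0.58 and 0.61 (limma adjusted p of 0.497 and 0.490). The endothelium and fibroblast list had no such order, with -0.20, -0.12 and 0.30 in the congenic rats against -0.34, 0.37 and -0.01 in S1, S2 and S3. None of its 7 genes was called, and without S2 there was 1 in each direction, against 8.27% of all genes lower and 11.3% higher. The collagen genes Col3a1 and Col1a1 had log2 fold changes of 0.50 and 0.28 (limma adjusted p of 0.646 and 0.788), and the endothelial gene Pecam1 had -1.14 (limma adjusted p = 0.407). The part of these cell type markers in the class II levels was not tested.

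**Figure D4:**
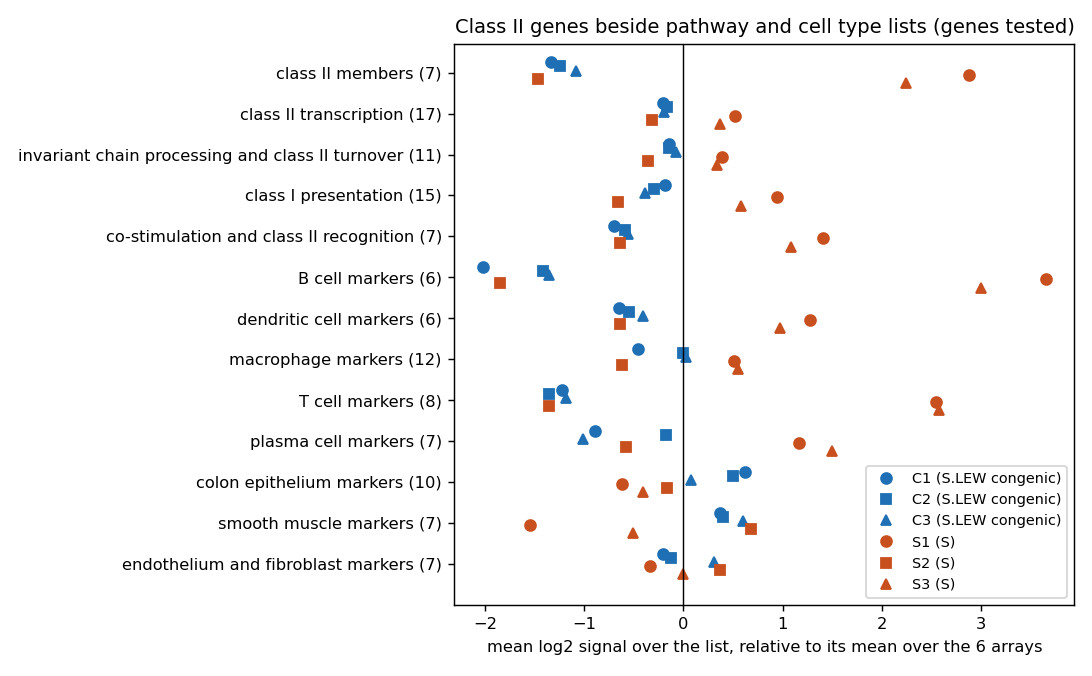
The mean log2 signal over the tested genes of each list (number in brackets), relative to its mean over the 6 arrays (horizontal axis), is plotted for each rat. S1 and S3 lie to the right of the other 4 rats for the class II list and for every other pathway list. They do so too for the B cell, T cell, dendritic cell, macrophage and plasma cell lists. Both lie to the left for epithelium and smooth muscle.

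Over the 6 arrays the mean class II profile was compared with 10761 genes that were well above background in all rats. The highest Pearson correlations were those of Irf5, Jak3, Rassf5, Prkd2, Akna, Arhgap17, Dhx16, Fcmr, Ncf4 and Mfng, from 0.9998 for Irf5 to 0.9988 for Mfng. Irf5, a transcription factor of myeloid and B cells, had a log2 signal of 6.97, 7.13 and 7.15 in the congenic rats against 10.69, 6.85 and 10.13 in S1, S2 and S3. Fcmr, the receptor for the Fc part of IgM, had 7.51, 7.85 and 8.22 in the congenic rats against 14.15, 7.50 and 13.46 in S1, S2 and S3. Dhx16, an RNA helicase, had the same shape at a small size, with a log2 fold change of -0.32 against -3.85 for Fcmr. Among the other 8 genes Akna had the largest log2 fold change, -3.06, and Arhgap17 the smallest. In all, 242 genes correlated above 0.99 and 1005 above 0.95. These correlations have n = 6 arrays, rest on S1 and S3 being high, and are given as a description.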

How the data were processed

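Per the labels, total RNA was labeled with Cy3 and the arrays were read with Agilent Feature Extraction (11.0.1.1). The deposited scanner files hold the intensity of 42877 spots per array, corrected for background but not normalized. The authors quantile-normalized these values and kept what was detected on 3 or more of the 6 arrays, which left log2 values for 23997 probes in the deposited table. On every array these correlated at 0.9986 or above with the log2 scanner intensity, with column medians of 8.55 to 8.57, so the scale is log2 and probes are not centered. Between 73.8% and 87.6% of the spots were well above background and none was saturated. The number of arrays limits the precision.

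Strains were compared on the deposited values with lmFit and eBayes of limma 3.58.1, without covariates, run in R 4.3.3 and tested on simulated data. The simulated arrays of both strains had the spread of the congenic arrays. They therefore do not show how limma behaves under the wider spread of the S arrays at the class II probes. Accessions were matched to RefSeq genes of GRCr8, naming 18005 of 30367 probes. For lists, a gene was represented by whichever of its probes had the greatest mean, and levels of different probes were compared for no other purpose than choosing probes and named genes. Plots were drawn with matplotlib 3.10.9.

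The class II genes and all lists were chosen with earlier results of these data known. Named were all members, the genes called in each pathway list with up to 4 of the largest changes, the 2 genes of each marker list with the greatest mean signal, and the 10 genes most like the class II profile. A few genes this rule names are left out of the text. Rfx5, the NF-Y genes, Pecam1 and the called marker genes outside those 2 of their lists were named after their values had been seen. So were Cd80, Cd86, Clec10a and Zbtb46. The alternatives were scanner values with other scaling, background correction and filters, the methods' t-test, array weights, the scan or the replicate number as a block, and leaving out each rat in turn. The comparison within a scan was chosen after seeing the data.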

Additional observations from a re-analysis of the deposited data

Results flagged for a closer look

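A pair of class II probes outside the authors' table gave a signal in S rats alone. RT1-DOa, the alpha chain of DO, was well above background in 2 of the 6 rats, S1 and S3. Its normalized scanner log2 signal was 3.34, 3.66 and 3.93 in C1, C2 and C3 and 9.67, 3.72 and 8.83 in S1, S2 and S3. With the congenic rats at the detection floor of 5.05, it was at least 5.11-fold lower in them, and the bound was 2.34-fold without S1, 18.3-fold without S2 and 3.12-fold without S3. RT1-Ha was also well above background in 2 rats, again S1 and S3. Its log2 signal was 2.25, 4.81 and 2.32 in the congenic rats against 7.12, 2.24 and 6.36 in S1, S2 and S3, and the same floor put the congenic signal at least 1.14-fold lower. Without S1 or without S3 no bound remained for RT1-Ha, and without S2 it was 3.23-fold. A probe seen in 2 rats could not pass a filter that asks for 3. Both were outside the probes compared between the strains.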

How the results depend on the processing

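The log2 fold changes of the 9 class II probes were below 0 in all 144 values over the alternatives run, and the number of class II probes called higher in the congenic rats was 0 in each of them. The median log2 fold change of the class II probes was -2.50, and with 1 rat left out it ran from -3.87 (without S2) to -1.65 (without S1). The number called lower, 1 on the authors' values, was 0 on scanner values with no filter, 0 with the methods' t-test, 0 with the scan as a block, 0 within the scan of both strains, and 9 with array weights, a fit that stopped short of its convergence tolerance and whose median log2 fold change was -3.52. With 1 rat left out it ran from 0 to 9, with 9 when S2 was left out and 0 for each of the other 5 rats. Per the methods each cage held 1 S and 1 congenic rat, and the labels do not say which rats shared a cage. Deviations from the mean of the strain correlated at -0.02, -0.13 and -0.06 between C1 and S1, C2 and S2, and C3 and S3. With 3 rats per strain these values cannot show whether the replicate numbers pair cage mates. With the replicate number as a block 7 of the 9 probes were called lower, with limma adjusted p of 0.458 to 0.479. The causes were not tested. The count called over all probes moved with the setting as well, from 562 lower and 776 higher to 178 and 515 with the methods' t-test, 377 and 359 with normexp, 758 and 693 at the 75th percentile, 227 and 551 with the scan as a block, 1744 and 2090 with array weights, and 1725 and 2397 without S2. Signal near background limits the dim probes.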

Other observations

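Of the 6370 probes outside the authors' table, 4027 were well above background in no rat and 1299 in 2 rats. For 978 of these the 2 rats were S1 and S3. Among them were all 4 B cell markers outside the table, Cd79b, Cr2, Fcer2 and Blk, and all 4 T cell markers, Cd3e, Cd247, Cd2 and Cd27. The dendritic cell markers Xcr1, Clec9a and Ccr7, 3 of 4 outside the table, showed the same pair of rats. So did Cd40lg, Icos, Cd28 and Pdcd1lg2 of co-stimulation, Irf2 and Irf4 of class II transcription, Marchf1, which turns class II molecules over, and RT1-CE10 of class I. RT1-Ba was the only class II member outside the table and was above background in 0 rats, with a normalized scanner log2 signal of 2.19 to 3.27. These genes were named after their values had been seen.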
